A study of Drosophila melanogaster with 6 samples.

Results

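The vacuolar ATPase (V-ATPase) is the proton pump that acidifies lysosomes, endosomes and secretory vesicles and, in some epithelia, the space outside the cell. Its genes were taken here as every row of the deposited count table whose name begins with Vha and a letter or digit, which gave 33 of 15391 rows. Of these, 13 encode subunits of the V1 sector, 18 subunits of the V0 sector and 2 accessory proteins. The genes were divided by background knowledge into 18 broadly expressed subunits and 15 paralogs known for restricted expression, such as Vha100-4. Enough reads for a test were present for 21 of the 33, namely 17 broadly expressed subunits and 4 restricted paralogs.

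The V1 sector lies in the cytosol and hydrolyses ATP, and the V0 sector lies in the membrane and carries protons across it. Many subunits of the fly pump are encoded by several genes, most of which are used in the male germ line or in particular epithelia, while the a subunits help to set which membrane the pump sits in. In the adult fly midgut the pump acidifies lysosomes of the absorptive enterocytes and serves acid secretion by the copper cells of the middle midgut. Rab11, a small GTPase, acts at recycling endosomes and in transport to the apical membrane.

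RNA came from dissected midguts of adult Drosophila melanogaster. In 1 group of 3 libraries (Rab11_KD) Rab11 was knocked down by RNA interference with Myo1A-Gal4, which drives expression in enterocytes, and the other 3 libraries (WT) came from wild-type controls. Both groups were kept at room temperature and moved to 29 °C for 5 days, beginning 5 days after eclosion. The labels call the samples enterocytes, but whole midguts were used, so RNA of cells that do not carry the driver is included, and fewer cells of a type and less RNA per cell cannot be told apart. The sources used here do not state whether libraries of 1 group came from different flies, and p-values then cover only the spread among these libraries, which may be technical.

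Depth was 9818914 to 33082790 counts per library, and both replicate 3 libraries were deeper than the others. Levels below are CPM (each gene's reads relative to all counted reads of its library) scaled with trimmed-mean-of-M-values (TMM) factors, and changes are log2 fold changes of Rab11_KD over WT. A gene is said to have risen or fallen where edgeR's quasi-likelihood test gave an adjusted p under 0.05 over the 8377 genes tested. Rab11 stood at 64.4, 78.2 and 78.7 CPM in the 3 Rab11_KD libraries and at 319, 270 and 219 CPM in the 3 WT libraries. It fell by 1.87 on the log2 scale (SE 0.23, adjusted p = 0.00342), which left 27.4% of the wild-type level. Markers of enterocytes, such as Myo31DF, were present in every library, as were markers of enteroendocrine cells, progenitors, visceral muscle and Malpighian tubule.

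Of the 21 V-ATPase genes tested, 1 rose (Vha100-1) and 0 fell by edgeR's test, against 16.7% of all genes tested that changed. The median log2 fold change of the 21 genes was -0.11, beside 0.04 for all genes, and single genes ranged from -1.71 to 0.67. At an unadjusted p under 0.05 by edgeR there were 2 genes, Vha100-1 and VhaAC39-2, against 2703 of all 8377 genes tested. DESeq2 called a different pair, Vha100-1 (higher) and Vha100-2 (lower), against 2003 of the 9463 genes in its test. The 95% interval of the log2 fold change lay inside -1 to 1 for 13 of the 21 genes, against 2756 of all 8377 genes tested. For these 13 a change beyond that size was outside the interval, while the other 8 were measured less closely. The intervals hold for TMM factors and do not cover a change of scaling. Values of Rab11_KD and WT did not overlap for 5 of the 21 genes, against 37.9% of all genes tested.

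The sign of 8 of the 21 log2 fold changes depended on scaling. With library sizes alone, in place of TMM factors, 17 were positive rather than 9, and the median of all genes moved from 0.04 to 0.47. Relative to the median of all genes, the median of the members was -0.15 with TMM factors and -0.17 with library sizes alone. Members that did not pass the test are therefore given below by their values.

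**Figure D1:**
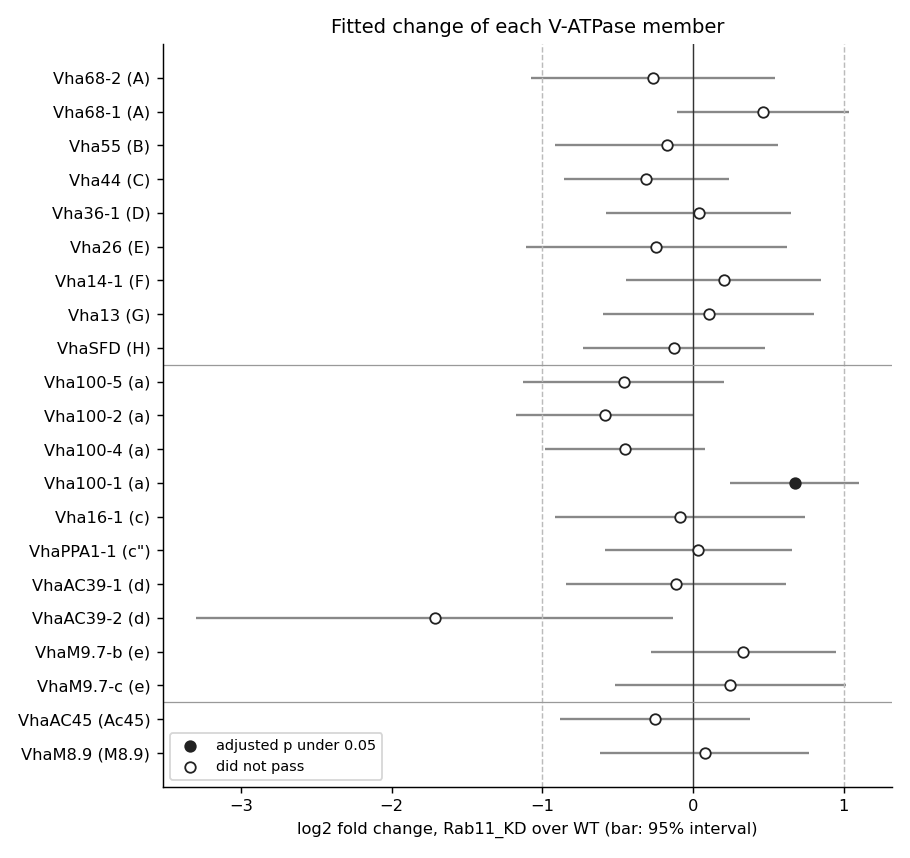
Log2 fold change (Rab11_KD over WT) of the 21 tested V-ATPase genes on the x axis, with 95% intervals from edgeR, grouped by sector. Vha100-1, at 0.67, is the gene that passed the test, and the interval of VhaAC39-2, at -1.71, is the widest.

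Among the V1 subunits, 9 were tested and 0 changed by edgeR's test, against 16.7% of all genes tested. At an unadjusted p under 0.05 by edgeR there were also 0, against 2703 of all 8377 genes tested. The median log2 fold change of the 9 was -0.13. Vha68-2, the main gene for the catalytic A subunit, stood at 2073, 2384 and 1509 CPM in Rab11_KD and 2370, 2764 and 2037 CPM in WT. Vha55, which encodes the B subunit that forms the ATPase head together with A, stood at 1715, 1775 and 1230 CPM in Rab11_KD and 1873, 1923 and 1535 CPM in WT. The groups overlapped for both, replicate 3 was the lowest library of each group, and the log2 fold changes were -0.27 (95% interval -1.07 to 0.54) and -0.18.

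The stalk subunits that join the head to the membrane sector likewise overlapped between the groups. Vha36-1 (subunit D) and Vha14-1 (subunit F), which form the central stalk, had log2 fold changes of 0.04 and 0.20. Vha26 (subunit E) and Vha13 (subunit G), which form the peripheral stalks, had values of -0.24 and 0.10. Vha26 stood at 712, 744 and 1074 CPM in Rab11_KD and 816, 726 and 1454 CPM in WT, so replicate 3 was the highest library of both groups, as it was for Vha68-1 below.

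Subunits C and H bear on the joining of V1 to V0. Vha44 (subunit C) stood at 454, 460 and 361 CPM in Rab11_KD and 512, 549 and 521 CPM in WT. All knockdown libraries lay below all wild-type libraries, but the log2 fold change of -0.31 did not pass the test (95% interval -0.86 to 0.24, adjusted p = 0.410 by edgeR), and it was 0.10 with library sizes alone. VhaSFD (subunit H) had a log2 fold change of -0.13.

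Vha68-1, the second A subunit gene, was listed as broad but was scarce here. It stood at 9.54, 7.80 and 9.55 CPM in Rab11_KD and 6.10, 5.98 and 7.39 CPM in WT. The groups did not overlap, and the log2 fold change of 0.46 did not pass the test (95% interval -0.11 to 1.03, adjusted p = 0.237 by edgeR).

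**Figure D2:**
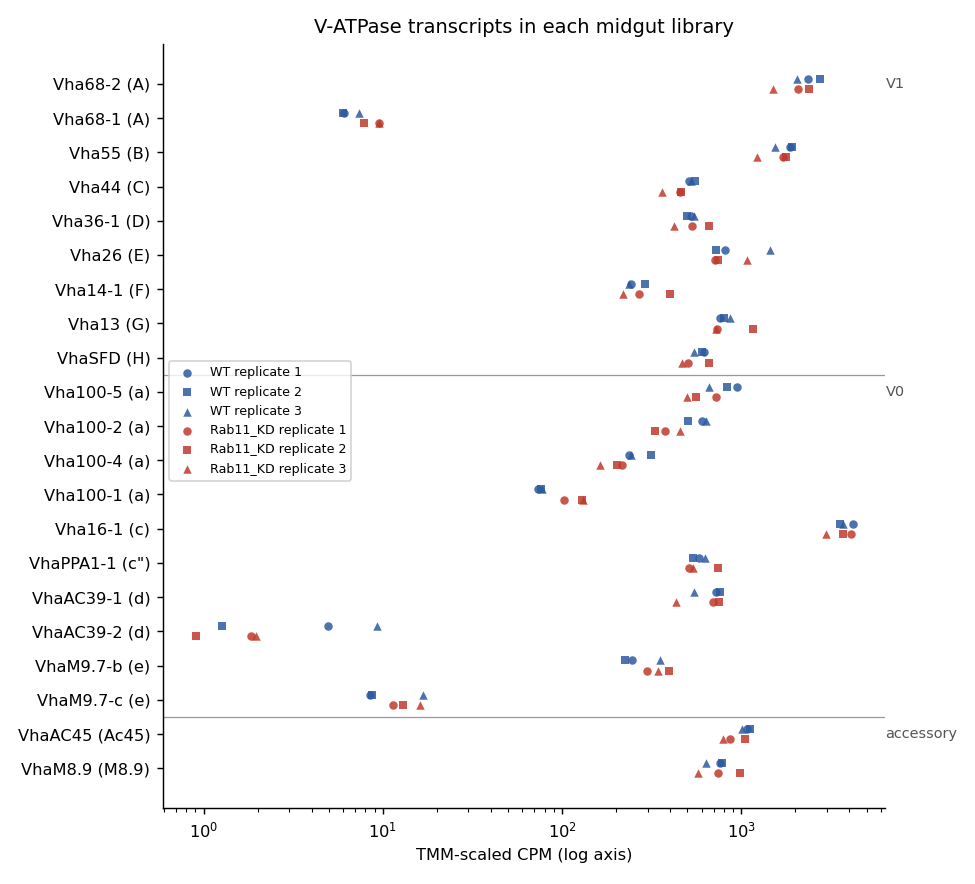
TMM-scaled CPM on a log axis for each tested V-ATPase gene, with 1 point per library (3 Rab11_KD, 3 WT). Levels span from 0.905 CPM for VhaAC39-2 to 4179 CPM for Vha16-1, and Vha100-1 and Vha68-1 are the genes whose 3 knockdown points all sit above their 3 wild-type points.

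In the V0 sector 10 genes were tested, 1 rose and 0 fell, against 16.7% of all genes that changed. The median log2 fold change of the 10 was -0.10. The a subunit, which forms the path for protons together with the c ring, was the only subunit here with more than 1 abundant gene. Vha100-1, best known in flies for its role at synapses, stood at 102, 129 and 131 CPM in Rab11_KD and 73.7, 76.3 and 77.2 CPM in WT. Every knockdown library was above every wild-type library, and the wild-type libraries lay close together. Vha100-1 rose by 0.67 on the log2 scale (SE 0.18, 95% interval 0.25 to 1.10, adjusted p = 0.0461 by edgeR).

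The call for Vha100-1 was close to the threshold. It held with the replicate number as a block (adjusted p = 0.0307) and in DESeq2 (adjusted p = 0.0139), and the authors' deposited table lists the gene with a log2 fold change of 0.65 (SE 0.20) and an adjusted p of 0.00893. It was lost when any 1 of the 6 libraries was left out, with adjusted p from 0.0877 to 0.142 and log2 fold changes from 0.60 to 0.79, and with no filter on low counts (adjusted p = 0.0880) or DESeq2 size factors in edgeR (adjusted p = 0.0501).

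Some markers of other cell types were higher in Rab11_KD, as Vha100-1 was, and others were not. All 6 enteroendocrine markers rose, against 758 of all 8377 genes tested. Of the 6, 2 to 5 passed when 1 library was left out, with 2 without WT replicate 1. Their summed level was 485 to 670 CPM in Rab11_KD and 167 to 204 CPM in WT, and none was at 0. Of 6 progenitor markers 2 rose (Dl and Sox21a), again against 758 of all 8377 genes tested. The summed levels of the 6 were 118 to 125 CPM in Rab11_KD and 37.4 to 73.2 CPM in WT, and none was at 0. The other progenitor markers did not pass, with overlapping groups and log2 fold changes from -0.44 (klu) to 0.42 (E(spl)mbeta-HLH). Median log2 fold changes of the visceral muscle and Malpighian tubule markers were -0.49 and -0.25. The part of these cell types in the rise of Vha100-1 was not tested.

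The other a subunit genes pointed the opposite way without passing the test. Vha100-2 stood at 375, 330 and 457 CPM in Rab11_KD and 603, 505 and 631 CPM in WT, so all knockdown libraries were lower. The change of -0.58 on the log2 scale did not pass (SE 0.25, 95% interval -1.17 to 0.01, adjusted p = 0.159 by edgeR). The adjusted p was 0.0715 in the blocked fit, and with library sizes alone the log2 change was -0.12. In the authors' deposited table it has a log2 fold change of -0.59 with an adjusted p of 0.0318, and it is the second gene called by DESeq2 here (adjusted p = 0.0412). With DESeq2 the a subunit genes therefore hold a call in each direction, and with edgeR only that of Vha100-1.

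Vha100-4, listed among the restricted paralogs, was abundant in these midguts at 215, 202 and 162 CPM in Rab11_KD and 238, 312 and 241 CPM in WT. The groups did not overlap, and the log2 fold change was -0.45 (95% interval -0.98 to 0.08, adjusted p = 0.219 by edgeR). Vha100-5, also listed as restricted, stood at 722, 557 and 500 CPM in Rab11_KD and 948, 834 and 664 CPM in WT, with overlapping groups and a log2 fold change of -0.46 (adjusted p = 0.316 by edgeR). In the BDGP6 annotation an antisense RNA covers 18.1% of the Vha100-5 exonic bases, and without a stated strand setting its reads cannot be told apart from those of Vha100-5.

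Expressed per kilobase of annotated exon, which allows an approximate comparison of genes, Vha100-5 supplied the largest part of the a subunit transcripts in every library. Its share was 52.2, 46.9 and 41.5% in Rab11_KD and 52.3, 49.3 and 42.5% in WT. The share of Vha100-2 was 24.6, 25.2 and 34.4% against 30.1, 27.0 and 36.6%, and that of Vha100-4 was 16.6, 18.2 and 14.4% against 14.0, 19.7 and 16.5%. Vha100-1 made up 6.56, 9.67 and 9.67% in Rab11_KD and 3.60, 4.0 and 4.39% in WT, or 8.63 ± 1.80% against 4.0 ± 0.39% (mean ± SD, n = 3 each), and it was the only a paralog with reads in every library whose shares did not overlap between groups.

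**Figure D3:**
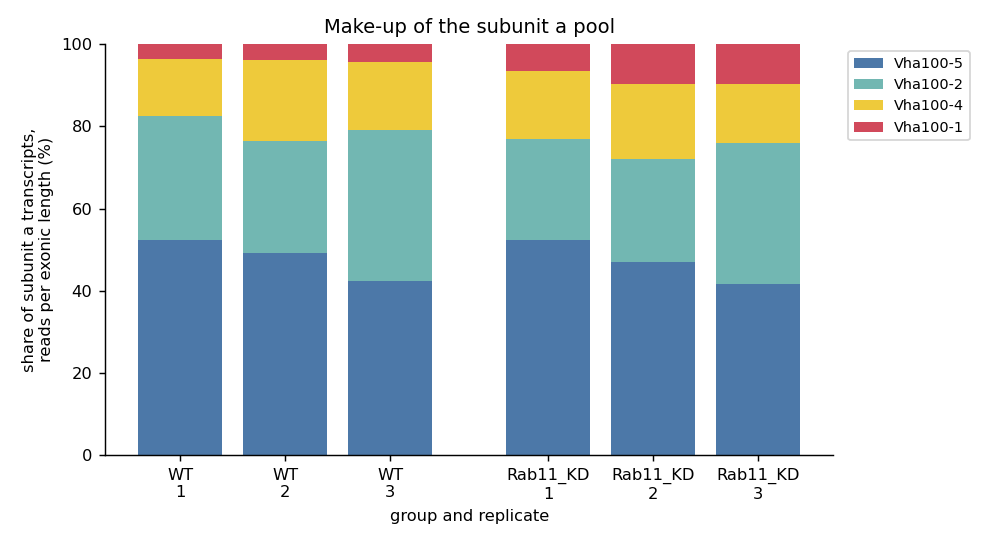
Share (%) of CPM per kilobase held by each a subunit gene in each of the 6 libraries; Vha100-3, with 2 reads in 1 knockdown library, is not drawn. Vha100-5 is the largest segment in every library, and the Vha100-1 segment is 6.56 to 9.67% in Rab11_KD and 3.60 to 4.39% in WT.

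Ratios of paralogs within a library do not depend on scaling. The log2 ratio of Vha100-1 to Vha100-5 counts was -2.82, -2.11 and -1.93 in Rab11_KD and -3.69, -3.45 and -3.10 in WT. It was higher in all 3 knockdown libraries, by a mean of 1.13. That difference holds both the higher Vha100-1 (log2 fold change 0.67) and the lower Vha100-5 (-0.46, which did not pass). The exact two-sided permutation p was 0.1, the smallest that 3 against 3 allows, and the adjusted p was 0.6 over the 6 paralog pairs compared. For the ratios of Vha100-2 and Vha100-4 to Vha100-5, the mean log2 differences were -0.13 and 0.01 (exact permutation p = 0.5 and p = 1), and the groups overlapped.

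The c subunit forms the rotating ring and is present in several copies per pump. Vha16-1, its main gene, had the highest level per kilobase of any member, with a wild-type mean of 1236 CPM per kilobase, ahead of Vha68-2 at 866 and Vha13 at 860. It stood at 4090, 3696 and 2958 CPM in Rab11_KD and 4179, 3536 and 3697 CPM in WT, and the log2 fold change was -0.09 (95% interval -0.91 to 0.74). VhaPPA1-1, which encodes the c'' subunit of the same ring, had a log2 fold change of 0.04.

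VhaAC39-1, the main gene for subunit d, which couples the ring to the central stalk, had a log2 fold change of -0.11. Its scarce paralog VhaAC39-2 stood at 1.84, 0.905 and 1.97 CPM in Rab11_KD and 4.95, 1.27 and 9.31 CPM in WT, so the groups overlapped and the wild-type libraries differed widely. The log2 fold change was -1.71 (95% interval -3.30 to -0.13), and it did not pass edgeR's test (adjusted p = 0.129). It did pass with the replicate block, where the log2 fold change was -1.57 (adjusted p = 0.0361) and 29.3% of all genes changed. Leaving out 1 library gave log2 fold changes from -2.15 to -0.99 and adjusted p from 0.0448 to 0.351. The gene passed only without WT replicate 2 (adjusted p = 0.0448), and without WT replicate 3, its highest library, the log2 fold change was -0.99 (adjusted p = 0.351 by edgeR). The authors' deposited table lists VhaAC39-2 with a log2 fold change of -1.43 and an adjusted p of 0.0548.

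The summed level of 7 Malpighian tubule markers was 407, 247 and 530 CPM in Rab11_KD and 194, 397 and 820 CPM in WT. It was also highest in WT replicate 3, as was that of 5 visceral muscle markers (795, 899 and 1279 CPM in WT). The tubule sum was lower in WT replicate 1 than in WT replicate 2, while VhaAC39-2 was higher there (4.95 against 1.27 CPM). None of the 7 tubule markers passed edgeR's test, and none was at 0. With the replicate block 1 fell, against 29.3% of all genes that changed. The part of these tissues in the level of VhaAC39-2 was not tested.

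Subunit e is a small membrane protein of V0. Its gene VhaM9.7-b stood at 297, 394 and 345 CPM in Rab11_KD and 244, 224 and 353 CPM in WT, with a log2 fold change of 0.33 (adjusted p = 0.433 by edgeR). VhaM9.7-c, a restricted paralog, had a log2 fold change of 0.25. Both accessory proteins, VhaAC45 and VhaM8.9 (the fly homologue of the prorenin receptor), were tested, with log2 fold changes of -0.25 and 0.08, and neither passed the test.

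The remaining 12 genes were at or near the floor of detection. Vha14-2 had 0 reads in every library, which allows up to 0.0907 to 0.306 CPM of unscaled counts per library, taking 3 counts as the limit. Vha16-2 and Vha16-3 had 1 read each in all 6 libraries together, and Vha100-3, Vha16-4, Vha16-5, Vha36-2, VhaM9.7-d and VhaPPA1-2 had at most 2 reads in any library. Vha68-3 had 6, 6 and 17 reads in Rab11_KD and 2, 5 and 8 in WT, and Vha36-3 had 4, 1 and 15 against 0, 2 and 12.

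VhaM9.7-a, the only gene of the broad list that was too low for a test, had 12, 5 and 38 reads in Rab11_KD and 3, 2 and 11 in WT. Scaled by depth, these were 0.848, 0.565 and 0.796 CPM against 0.381, 0.255 and 0.346 CPM, so all knockdown libraries lay above all wild-type libraries. In the edgeR fit with no filter its log2 fold change was 1.18 (adjusted p = 0.426), which did not pass. That fit held 11 of the 12 genes and called 0 of them, with 0 at an unadjusted p under 0.05, and DESeq2, which gave an adjusted p for 3 of them, also called 0. Of the 5 testis markers, 1 was at 0 in every library, and their summed level was 0 to 1.15 CPM. For the other genes of these 12 the groups overlapped.

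The broad and restricted labels described the midgut levels only in part. Per kilobase, the restricted paralogs Vha100-5 (279 CPM per kilobase in WT) and Vha100-4 (96.6) lay above the broad Vha100-1 (23.0) and Vha68-1 (2.42). Neighbours in the order of levels were often within the spread of the 3 WT libraries: Vha68-2 at 866 ± 132 and Vha13 at 860 ± 56.4, and VhaAC45 at 532 ± 27.1 and VhaM8.9 at 493 ± 53.5 CPM per kilobase (SD, n = 3). Of the 17 broad genes tested 1 rose, and of the 4 restricted genes 0 changed, against 16.7% of all genes tested. The median log2 fold changes were -0.09 and -0.46, beside 0.04 for all genes, and the 4 restricted genes ranged from -1.71 to 0.25. Across the 21 genes, the median coefficient of variation within a group was 19.1% in Rab11_KD and 11.4% in WT. The same value over all genes was not taken, so the wider spread is not shown to be particular to the pump.

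The pump as a whole was summed over all 33 genes. The sum was 15623, 17084 and 12912 CPM in Rab11_KD and 17166, 16863 and 16260 CPM in WT, so the groups overlapped and the knockdown libraries were more spread. As a share of raw counts the order of the means was the reverse (1.76% in Rab11_KD and 1.45% in WT), with libraries at 1.86, 1.54 and 1.86% in Rab11_KD and 1.34, 1.34 and 1.69% in WT, which again overlapped. The ratio of V1 to V0 transcripts per kilobase was 1.39 ± 0.15 in Rab11_KD and 1.37 ± 0.11 in WT (mean ± SD, n = 3 each).

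Replicate 3 differed from replicates 1 and 2 in the same direction in both groups for most genes. This was so for 18 of the 21 members (85.7%), of which 7 were higher and 11 lower, and for 75.1% of the 8266 tested genes with reads in every library. Vha26 was higher by 0.56 and 0.92 on the log2 scale in Rab11_KD and WT, and VhaAC39-1 differed by -0.74 and -0.44. The labels name Ion Torrent and Illumina protocols without assigning them to libraries, so the platform of replicate 3 is not known. Without both replicate 3 libraries, edgeR's test called 0 of the members, and Vha100-1 had a log2 fold change of 0.60 (adjusted p = 0.0840).

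Genes that act with the pump were followed in lists taken from background knowledge. The lists were chosen with earlier results of these data known, so their shares of called genes beside all genes are description only. Of 4 genes for assembly and regulation of the pump, 0 changed by edgeR's test, against 16.7% of all genes tested. At an unadjusted p under 0.05 by edgeR there were 2, against 2703 of all 8377 genes tested. DESeq2 called 1, mtd, against 2003 of the 9463 genes in its test. Rbcn-3A was the most abundant over the 6 libraries, at 284 ± 28.3 CPM in Rab11_KD and 348 ± 38.7 CPM in WT. The next, mtd, an orthologue of OXR1-family proteins that bind V1, stood at 242 ± 36.8 CPM in Rab11_KD and 353 ± 30.1 CPM in WT, with a log2 fold change of -0.54 (adjusted p = 0.142 by edgeR). Rbcn-3A and Rbcn-3B, which form the rabconnectin complex that promotes assembly, had log2 fold changes of -0.30 and -0.53. Values of Rbcn-3A, Rbcn-3B and mtd did not overlap between groups, all lower in Rab11_KD, against 37.9% of all genes tested that did not overlap. The remaining gene, Skp1, had overlapping groups and a log2 fold change of 0.32. The list median depended on scaling, at -0.41 with TMM factors and 0.06 with library sizes alone, where 2 of the 4 were positive rather than 1.

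The V-ATPase also serves as a platform for nutrient sensing by Tor at the lysosome. Of 11 tested genes of that list, 2 rose and 1 fell, or 27.3%, against 16.7% of all genes. RagA, a GTPase that brings Tor complex 1 to the lysosome, was 49.7 ± 6.32 CPM in Rab11_KD and 22.6 ± 5.63 CPM in WT (log2 fold change 1.13, adjusted p = 0.0195 by edgeR). Lamtor5, a part of the Ragulator scaffold, also rose (log2 fold change 0.92, adjusted p = 0.0417 by edgeR). raptor, the defining subunit of Tor complex 1, fell from 50.1 ± 5.60 to 28.1 ± 0.64 CPM (log2 fold change -0.83, adjusted p = 0.0193 by edgeR), and Tor itself, the most abundant that did not pass, had a log2 fold change of -0.12. The calls of RagA, Lamtor5 and raptor held in 2, 1 and 2 of the 6 fits that left out a library, and with the replicate block 3 genes of the list rose and 2 fell, against 29.3% of all genes. With library sizes alone the call of raptor was lost (log2 fold change -0.37, adjusted p = 0.367 by edgeR).

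Of 16 tested genes for lysosomal contents and membrane proteins, 1 rose and 3 fell, or 25.0%, against 16.7% of all genes. Cp1, a cathepsin L protease, rose from 441 ± 73.8 to 975 ± 119 CPM (log2 fold change 1.14, adjusted p = 0.0307 by edgeR). Cln3, a lysosomal membrane protein, fell from 140 ± 27.6 to 53.3 ± 13.2 CPM (log2 fold change -1.39, adjusted p = 0.0136 by edgeR), and the lysosomal mannosidases LManI and LManIII fell with log2 changes of -1.22 and -2.21. Sap-r, the saposin precursor and the most abundant that did not pass, had a log2 fold change of 0.19. The calls of Cp1, Cln3, LManI and LManIII held in 0, 3, 3 and 1 of the 6 fits that left out a library, and with the replicate block 3 genes rose and 5 fell, against 29.3% of all genes. With library sizes alone the call of Cln3 was lost (log2 fold change -0.94, adjusted p = 0.144 by edgeR).

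Of 18 genes of copper cells and acid secretion, 0 rose and 5 fell, against the 16.7% of all genes that changed in either direction. ClC-a, a chloride channel, fell from 141 ± 38.7 to 39.2 ± 15.9 CPM (log2 fold change -1.85, adjusted p = 0.0179 by edgeR). Nha1, a sodium-proton antiporter, fell from 247 ± 64.5 to 91.5 ± 33.1 CPM, and the transcription factors hth, dve and Ptx1 fell with log2 changes of -1.29, -0.81 and -0.81. The copper cell selector lab had a log2 fold change of -0.40 (adjusted p = 0.262 by edgeR), and Atpalpha, the sodium pump subunit and the most abundant that did not pass, one of -0.94 (adjusted p = 0.122 by edgeR, and 0.0290 in the blocked fit).

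The median of the copper cell and acid list was -0.77, and -0.81 relative to the median of all genes. The summed level was 1875 to 2186 CPM in Rab11_KD and 3394 to 3503 CPM in WT. Within this sum, CAH1, which did not pass, stood at 556, 612 and 26.2 CPM in Rab11_KD and 768, 790 and 33.6 CPM in WT. Atpalpha stood at 550, 391 and 657 CPM in Rab11_KD and 836, 773 and 1451 CPM in WT. In replicate 3 CAH1 was thus far lower and Atpalpha higher, and these shifts partly offset each other in the sum. With library sizes alone, 0 of the list passed, the median was -0.33, and relative to all genes it was -0.80. The calls of ClC-a, Nha1, hth, dve and Ptx1 held in 5, 2, 2, 0 and 1 of the 6 fits that left out a library, while the replicate block called 1 higher and 11 lower, against 29.3% of all genes.

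Markers of other tissues are given beside these groups. Of 4 enterocyte markers tested 0 changed by edgeR's test, against 16.7% of all genes tested. At an unadjusted p under 0.05 by edgeR there was 1, against 2703 of all 8377 genes tested. The summed levels of the 4 were 6978 to 31251 CPM in Rab11_KD and 33199 to 68847 CPM in WT. With the replicate block 2 of the 4 fell, betaTry (adjusted p = 0.0200 by edgeR) and alphaTry (adjusted p = 0.0268), against 29.3% of all genes that changed. DESeq2 called 2 lower as well, against 2003 of the 9463 genes in its test called in either direction. The trypsin genes betaTry and alphaTry made up nearly all of the sum. The other enterocyte markers went in different directions without passing. Every knockdown library was higher for nub (log2 fold change 0.39, adjusted p = 0.267 by edgeR) and lower for Myo31DF (-0.55, adjusted p = 0.229). Of 5 visceral muscle markers 1 fell (Msp-300), against 639 of all 8377 genes tested. That call held in 0 of the 6 fits without 1 library. The summed levels of the 5 were 569 to 752 CPM in Rab11_KD and 795 to 1279 CPM in WT. The 4 hindgut markers summed to 56.6 to 77.2 CPM and 67.8 to 78.4 CPM, and none passed the test. The part of cell composition in the values of the pump, lysosomal and copper cell lists was not tested.

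**Figure D4:**
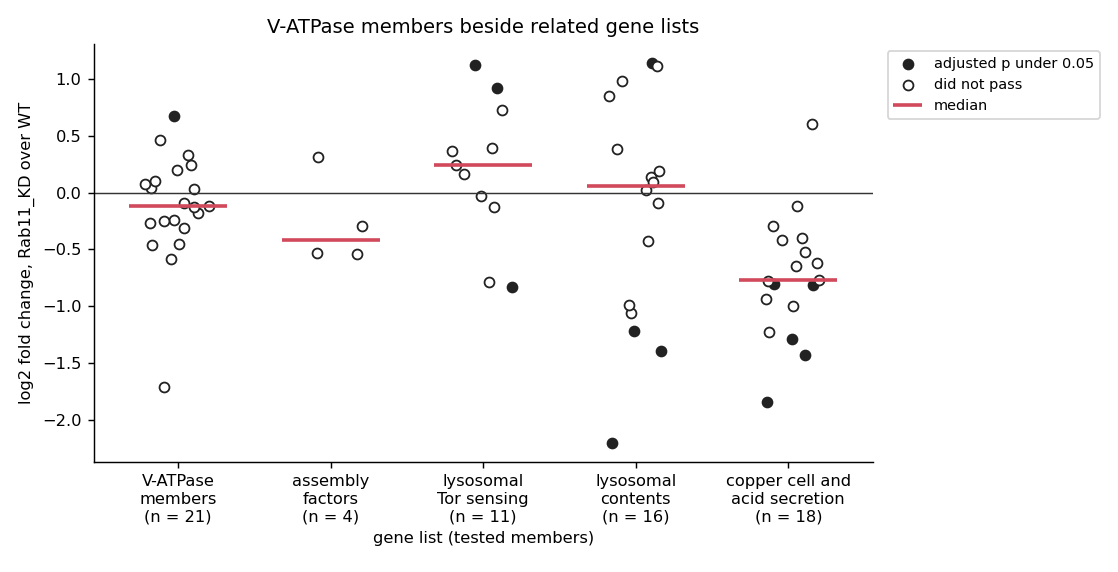
Log2 fold change (Rab11_KD over WT) of each tested gene of the V-ATPase and of 4 related lists, 1 point per gene, with the list median as a line and genes past edgeR's test marked. The V-ATPase median is -0.11 and that of the copper cell and acid list is -0.77.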

How the data were processed

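Reads per gene are raw counts deposited by the authors; STAR 2.4.2a, HTSeq 0.6.1, DESeq2 and build BDGP5 are named in the submitters' processing notes. For annotation, strand setting and each library's platform: not given in the sources used here. The authors' deposited table holds, per the file headers, a mean normalized count and a Wald statistic (scores), the log2 fold change and its standard error, and a p-value with its adjusted p-value for 2450 genes.

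Members and lists were chosen with earlier results of these data known. Genes named beyond the members are, for each list, up to 4 that passed, by rising p, and the most abundant that did not pass. Ptx1, lab, mtd, Rbcn-3B, Skp1, CAH1 and marker genes were named outside that rule, after their values were seen. Counts were tested with edgeR 4.0.16 (R 4.3.3; quasi-likelihood, TMM factors of 0.779 to 1.45, filterByExpr with a minimum count of 10, group as the only term, Benjamini-Hochberg adjustment over 8377 genes). DESeq2 1.42.0 was an alternative. The procedure was tested on simulated counts drawn independently for each library. These held no shift of replicate 3, so that test does not cover such a shift. Intervals are 95% intervals of the fitted change; the floor of 3 counts covers counting error only. Exonic lengths came from the BDGP6 annotation, another build, so no coordinates are given. They are the merged exons of all annotated transcripts of a gene, which can exceed the length of the transcripts present in the midgut. Values per kilobase, and the ranks, shares and V1 to V0 ratios from them, are therefore approximate. Paralog ratios used counts plus 0.5 and exact permutation over libraries.

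Deviations from the group means correlated at 0.14, 0.21 and 0.71 between same-numbered libraries, all over 0.1, which met the criterion for pairs. The main fit has no block; blocked values stand beside the results they change. However, knockdown replicate 2 with wild-type replicate 1 gave 0.51, and knockdown replicate 1 with wild-type replicate 2 gave 0.34. Both exceed the same-numbered 0.14 and 0.21, so by this measure only replicate 3 matched its own number best. Blocked values rest on a pairing of replicates 1 and 2 that these correlations do not bear out. Promoter motifs were not analysed here.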

Additional observations from a re-analysis of the deposited data

How the results depend on the processing

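The count of changed genes was 758 higher and 639 lower; library sizes alone gave 1154 higher and 240 lower, the replicate block 2451 in all, and leaving out 1 library 460 to 1138. Of the V-ATPase genes, 1 changed; DESeq2 factors in edgeR, no filter, and leaving out both replicate 3 libraries each gave 0, DESeq2's own test 2, the block 2, and leaving out 1 library 0 to 1. For the broad genes these were 0, 0, 0 and 2 with DESeq2, and 0 in each fit without 1 library; for the restricted genes the block gave 1, and leaving out 1 library 0 to 1. Members called were 1 for assembly with DESeq2; 5 for Tor sensing with the block, and 0 to 3 without 1 library; 8 for lysosomal contents with the block, and 0 to 3 without 1 library; for the copper list 0 with library sizes alone, 3 with no filter, 8 with DESeq2, 12 with the block and 0 to 4 without 1 library. The broad median was -0.00729 with upper-quartile factors, 0.33 with library sizes alone, -0.00930 without both replicate 3 libraries and -0.15 to 0.0801 without 1 library.

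With library sizes alone the sign turned for Vha68-2 (0.14), VhaSFD (0.28), Vha16-1 (0.33), VhaAC45 (0.16), Vha44 (0.10), Vha26 (0.18), Vha55 (0.24) and VhaAC39-1 (0.29). Leaving out 1 library gave -0.15 to 0.22 for Vha13, -0.0713 to 0.37 for Vha14-1, -0.18 to 0.0216 for Vha16-1, -0.46 to 0.0801 for Vha26, -0.13 to 0.17 for Vha36-1, -0.29 to 0.0801 for VhaAC39-1, -0.14 to 0.23 for VhaM8.9 and -0.15 to 0.14 for VhaPPA1-1. The log2 ratios to Vha100-5 spanned -0.37 to 0.0788 for Vha100-2 and -0.17 to 0.12 for Vha100-4, and VhaM9.7-c to VhaM9.7-b spanned -0.17 to 0.0826. The causes were not tested beyond the change of scale or of libraries. Under the replicate block the only V-ATPase call that changed was that of VhaAC39-2. A paired exact permutation of the Vha100-1 to Vha100-5 ratio gave p = 0.25, the smallest that 3 pairs allow. The same p came from the ratios of Vha68-1 to Vha68-2, Vha100-2 to Vha100-5 and VhaAC39-2 to VhaAC39-1. Of 294 values for single genes under an alternative, 264 kept direction and side of the threshold, 9 lost a call, 3 gained one and 18 changed sign. Depth limits the 12 genes not tested.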

Other observations

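CG31030, the row for a further restricted accessory gene (VhaAC45RP), does not begin with Vha and was not counted among the 33. It had 1.13, 1.36 and 1.21 CPM in Rab11_KD and 0.51, 0.64 and 0.50 CPM in WT, with no overlap. Its log2 fold change was 1.17 (adjusted p = 0.106 by edgeR, and 0.101 with the replicate block), which did not pass the test.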
